A study of Danio rerio with 16 samples.

Results

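In the brains of 4 zebrafish strains, 56 of 7922 probe sets on an expression array set the pools labelled TM1 apart from each of the other 3 strains while those 3 strains lay close together. A probe set, a group of short probes that read 1 transcript, was taken when the mean of the 4 pools labelled TM1 lay at least 0.5 above or at least 0.5 below each of the other 3 strain means on the log2 scale (a step of 1 is a doubling) and those 3 means spanned at most 0.4. Of the 56 members, 33 were higher and 23 lower in the pools labelled TM1. The same rule, turned to each of the other strains, took 53 probe sets for SH (32 higher), 43 for Nadia (37 higher) and 184 for Gaighatta (98 higher). The rule used the strain means themselves, so the differences between strains in the members, over all 4 pools, are given as a description, with no test.

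The study compared brains of adult fish of 4 to 6 months from the strains SH, TM1, Nadia and Gaighatta, the first pair described as domesticated and the second pair as recently derived from wild populations in India. Fish were reared in 1 facility, scored for behavior and then kept in group tanks of 1 sex and strain. Fish that shared a tank were pooled for 1 array (the design text in the deposit gives 2 to 5 fish, the study's methods 3 to 5), so a strain has 2 female and 2 male pools, and there are 16 arrays. By the paper's methods every fish was anesthetized with tricaine before its brain was taken, and no other drug or treatment is described. Per the paper TM1 carries a GFP transgene under a broadly active actin promoter.

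The deposited strain labels disagree with the tables of the study. Over 1645 probe sets compared, each within 0.0001, the 4 arrays labelled TM1 carry the values that the tables print for Gaighatta, while the columns of SH, Nadia and Gaighatta match those of Nadia, SH and TM1 there. The sexes are the same in both. The control probe set for GFP read 2.99 to 3.36 in the 4 pools labelled TM1 and 8.58 to 10.46 in the 4 labelled Gaighatta, which goes against the label TM1. The strain is therefore called by its label throughout, as the pools labelled TM1 (Gaighatta in the tables of the study). Nothing said below of the pools labelled TM1 is a statement about the transgenic strain. The pools labelled Gaighatta, TM1 in the tables of the study, are among the other 12 pools in every comparison. Transcripts of neurons were measured in every pool: of 21 neuron markers listed 4 are in the table, with a mean log2 value of 10.22 to 10.49 in the pools labelled TM1 and 10.42 to 10.74 in the other 12.

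Several kinds of gene stood among the 56. Interferons are secreted signals of infection whose receptors act through Janus kinases and switch on a broad set of antiviral and antigen-presenting genes. Microglia, the resident phagocytes of the brain, engulf cell debris, degrade it in lysosomes rich in cathepsins and make the complement protein C1q. Photoreceptor genes are used by the retina and, in fish, also by the pineal organ, and clock genes cycle over the day. Of the 33 higher members, 24 carried 1 gene symbol, 1 several and 8 none, and of the 23 lower members 13 carried 1 symbol and 10 none. Grouped by known roles after their values had been seen, the higher members included 5 linked to interferon, 10 typical of phagocytes and 3 of photoreceptors, with 15 others. Among the 10, the probe set annotated as laptm5 has another name in the tables of the study, so its place there is unsettled.

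**Figure D1:**
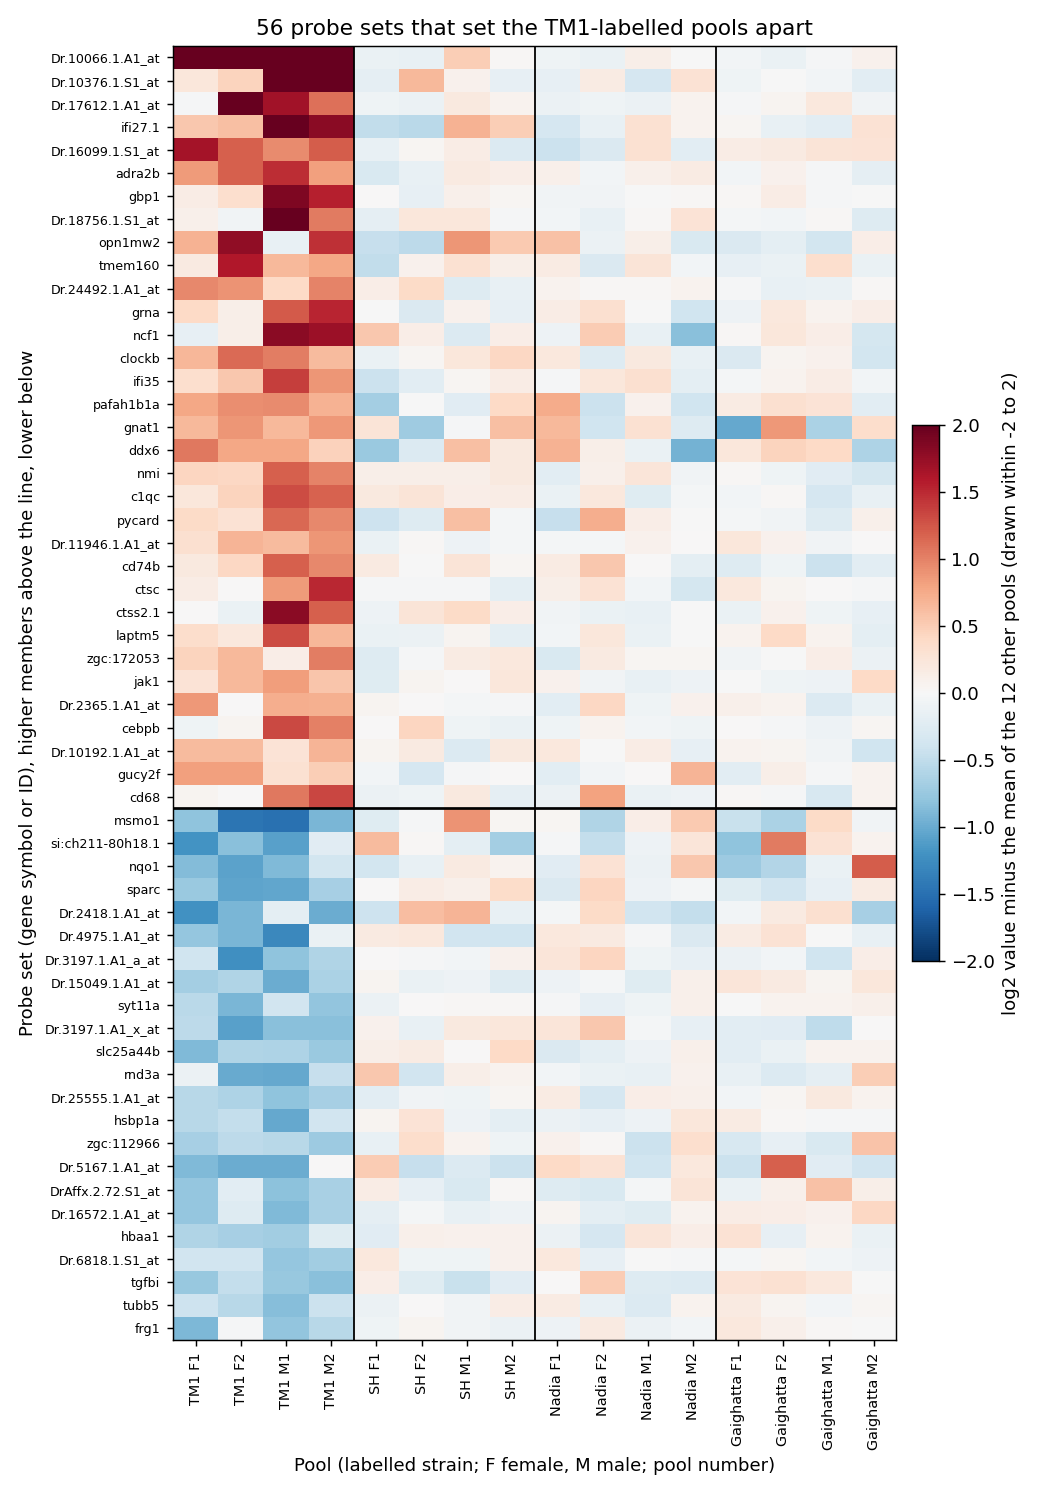
Heat map of the 56 members (rows, named by gene symbol or probe set) in the 16 pools (columns, by labelled strain, sex and pool number). Color gives the log2 value minus the mean of the 12 pools of other strains, drawn within -2 to 2. The first 4 columns are mostly red for the 33 higher and mostly blue for the 23 lower members, and many of the higher members are darkest in the male pools.

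The distance of the TM1 mean to the nearest other strain mean ran from 0.50 to 3.82 in the higher members (median 0.69) and was at least 1 in 6 of them. In the lower members it ran from 0.51 to 0.98 (median 0.59). All 4 pools labelled TM1 lay above all 12 other pools in 10 of the 33 higher members, against 0.555% of all probe sets, and below them in 14 of the 23 lower members, against 1.16%. The rule used these values, so nothing is read from those shares. Just inside the distance threshold lay cd68 and gucy2f at 0.50, and just outside it b2m (0.497) and cyba (0.480). On the lower side frg1 (0.507) and tubb5 (0.516) lay just inside, and 2 probe sets without a name, Dr.6952.1.A1_at (0.483) and Dr.25155.1.S1_s_at (0.479), just outside. By the span of the other strains, cd74b (0.378) and Dr.16099.1.S1_at (0.364) were just inside among the higher members, and Dr.2237.1.S1_at (0.405) and tfa (0.438) just outside. Among the lower ones tgfbi (0.395) and Dr.3197.1.A1_x_at (0.376) were just inside and prph (0.403) and ube2q2 (0.427) just outside.

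The member farthest from the other strains has no gene name. Dr.10066.1.A1_at read 7.59 and 6.59 in the female and 5.12 and 6.99 in the male pools labelled TM1, and 2.55 to 3.19 in the other 12 (median 2.66). Even the lowest of the 4 pools lay well above every other pool, while those 4 pools spread widely among themselves (6.57 ± 1.05, SD, n = 4). The next, Dr.10376.1.S1_at, read 4.52 and 4.73 in the female pools but 8.62 and 7.41 in the male pools, against 3.95 to 4.94 elsewhere (median 4.22). Its female pools lay within the range of the other strains and its male pools far above it. Dr.17612.1.A1_at, which the platform assigns to several genes, was split in another way. It read 3.19 in female pool 1, inside the range of the other 12 pools (3.09 to 3.42), and 5.80, 4.89 and 4.32 in the other 3 pools. Dr.16099.1.S1_at lay at 5.07, 4.60, 4.35 and 4.62 against 2.98 to 3.71, with no overlap. The other 5 higher members without a symbol lay 0.51 to 0.87 from the nearest strain.

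Of the 5 members linked to interferon, ifi27.1, an interferon-inducible protein, was the farthest from the other strains. It read 6.30 and 6.36 in the female and 7.80 and 7.56 in the male pools labelled TM1, and 5.22 to 6.45 in the other 12 (median 5.70). Its male pools lay above all others, and its female pools below the highest male pool of SH. gbp1, an interferon-induced GTPase, read 5.13 and 5.32 in the female and 6.85 and 6.54 in the male pools against 4.83 to 5.13 elsewhere (median 4.99). The pools did not overlap, but the female pools lay just above the rest and the male pools more than 1 log2 unit above. nmi and ifi35, interferon-induced proteins that bind each other in mammals, showed the same order. For nmi the female pools read 7.24 and 7.22 and the male pools 8.01 and 7.80 (6.46 to 7.06 elsewhere), and for ifi35 5.36 and 5.55 and then 6.40 and 5.90 (4.59 to 5.33 elsewhere). jak1, a kinase bound to interferon and other cytokine receptors, read 7.48, 7.85, 8.05 and 7.76 against 6.96 to 7.60, with female pool 1 inside that range.

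Of 16 other genes of the interferon response and of antigen presentation, 8 were higher in the pools labelled TM1, and their mean stood out in the male pools. The mean over the 16 was 5.45 and 5.65 in the female pools labelled TM1, within the 5.32 to 5.88 of the 12 other pools, and 6.32 and 6.14 in the male pools, above that range. The list of 41 genes had 18 measured, of which 2 (gbp1 and ifi35) are members. Of the others, 8 were called higher and 1 lower against the mean of the other 3 strains (adjusted p under 0.05, limma), where 3.52% of all probe sets were called higher and 5.69% lower. Their median difference was 0.43 on the log2 scale, against -0.04 over all probe sets. isg15, a ubiquitin-like protein that interferon induces, was 4.84 and 5.32 in the female and 7.20 and 6.08 in the male pools labelled TM1, against strain means of 3.97 to 4.68 (difference 1.62 ± 0.27, SE, adjusted p = 0.00175). irf1b, an interferon regulatory factor, was 5.65 and 5.98 in the female and 7.73 and 7.49 in the male pools, a difference of 1.36 ± 0.29 (adjusted p = 0.00827). psme1, an activator of the immunoproteasome, was higher by 0.79 (adjusted p = 0.00102). mhc1ufa, a class I gene, was the 1 called lower, at 4.14 against 7.12 and 6.31 in SH and Nadia but 3.31 in Gaighatta (difference -1.44, adjusted p = 0.00566). These genes were picked with earlier results of the same 16 arrays known.

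**Figure D2:**
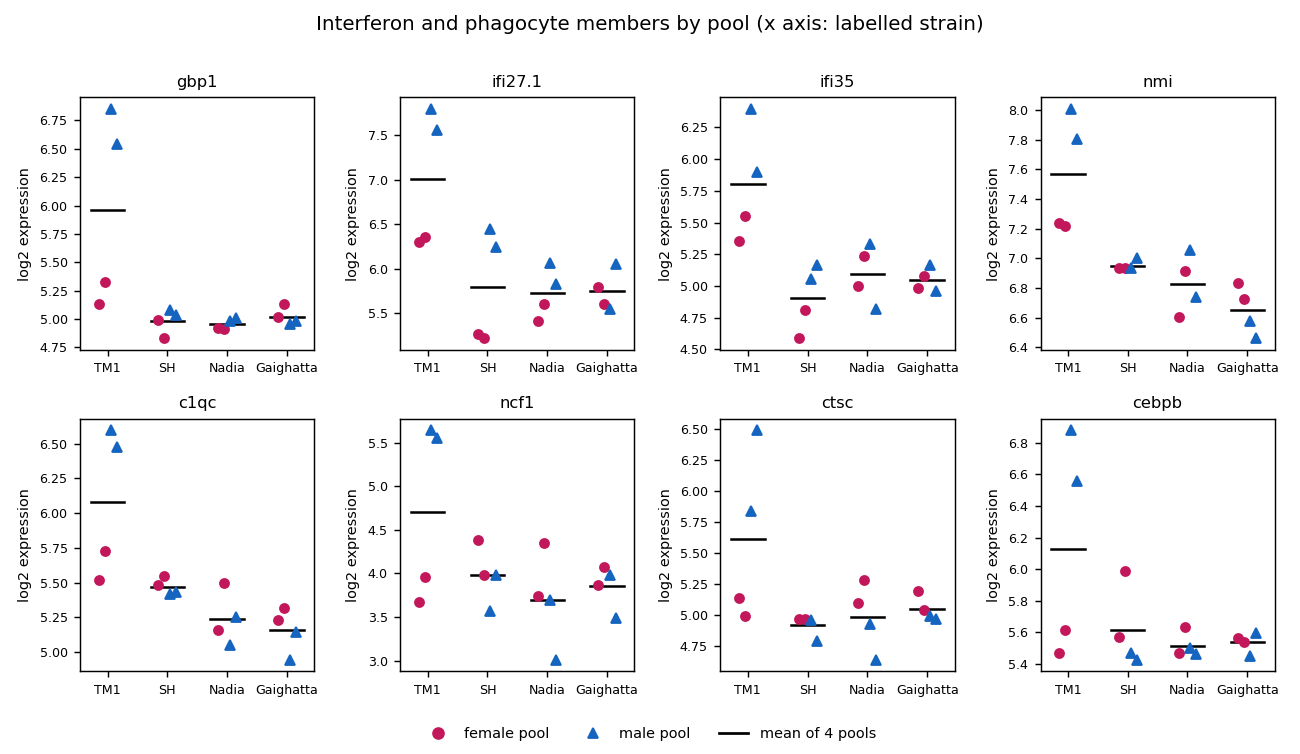
Log2 expression of 4 interferon-linked members (top row) and 4 phagocyte members (bottom row) in each pool (circles female, triangles male), by labelled strain, with the mean of 4 pools as a bar. In all 8 the male pools labelled TM1 lie above every other pool, while their female pools lie within or near the range of the other strains.

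The 10 phagocyte members had 1 pattern in common. In all 10, both male pools labelled TM1 lay above both female pools of the same strain, which held for 11.4% of all probe sets, and above all 12 pools of other strains, which held for 2.76%. In 0 of the 10 did both female pools lie above the 12 others (2.41% of all probe sets). The group was formed after the values were seen, and a high male value helps a gene to pass the rule, so nothing is read from these shares. The mean log2 value over the 10 was 5.61 in each female pool, 6.76 and 6.66 in the male pools, and 5.26 to 5.81 in the 12 other pools. c1qc, a chain of the complement protein C1q, read 5.52 and 5.73 in the female and 6.60 and 6.48 in the male pools, against 4.95 to 5.55 elsewhere (median 5.28). ncf1, a subunit of the phagocyte NADPH oxidase, read 3.68 and 3.96 and then 5.65 and 5.56, against 3.01 to 4.38 (median 3.93). Its female pools were inside the range of the other strains, and its male pools more than 1 log2 unit above the highest of them.

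The lysosomal members behaved alike. ctss2.1, a cathepsin S, read 5.48 and 5.34 in the female and 7.28 and 6.66 in the male pools (5.31 to 5.85 elsewhere), and ctsc, cathepsin C, 5.14 and 4.99 and then 5.83 and 6.49 (4.64 to 5.28 elsewhere). grna, a granulin, a secreted precursor that is also found in lysosomes, read 4.42 and 4.13 and then 5.23 and 5.54 against 3.62 to 4.34. For cd68, a lysosomal glycoprotein used as a macrophage marker, the female pools (6.38 and 6.32) were within the range of the other strains (6.01 to 7.12) and the male pools (7.37 and 7.65) above it. The probe set annotated as laptm5, a lysosomal membrane protein of leukocytes, read 6.54 and 6.40 and then 7.49 and 6.85 (5.98 to 6.58 elsewhere). The tables of the study name that probe set matn1, a cartilage matrix protein whose gene lies next to laptm5 with 0 coding genes between, so its gene is unsettled.

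The remaining phagocyte members were cebpb, a transcription factor of myeloid cells, cd74b, the invariant chain that guides MHC class II, and pycard, the adaptor protein of inflammasomes. cebpb read 5.47 and 5.61 in the female and 6.88 and 6.56 in the male pools, against 5.43 to 5.99 elsewhere. cd74b read 9.14 and 9.36 and then 10.14 and 9.90, against 8.51 to 9.47. pycard read 4.38 and 4.28 and then 5.13 and 4.94, against 3.52 to 4.71. In each of these 3 genes only the male pools stood outside the other strains. grna and ifi35, an interferon-linked member, are neighbours in the reference annotation with 0 coding genes between them.

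In their mean, markers of leukocytes outside the members were also higher in the male pools labelled TM1. The list was written with earlier results of these data known. Of 32 microglia and leukocyte markers listed, 17 were measured and 5 of these are members (c1qc, laptm5, cd74b, ctss2.1 and ncf1). The mean over the other 12 was 5.87 and 5.97 in the female and 6.67 and 6.40 in the male pools labelled TM1, and 5.64 to 6.22 in the 12 other pools. Of those 12 genes (median difference 0.21), 3 were called higher and 0 lower in limma, against 3.52% and 5.69% of all probe sets. The 3 were ctss2.2, higher by 1.09 ± 0.23 (SE, adjusted p = 0.00733), spi1b, the myeloid master regulator, by 0.52 (adjusted p = 0.00838) and cd74a by 0.44 (adjusted p = 0.0205). By name ctss2.2 and cd74a are related to the members ctss2.1 and cd74b, and signal shared between their probe sets was not tested. Of defining markers, ptprc, the leukocyte antigen CD45, read 3.92 and 4.34 in the female and 4.65 and 4.83 in the male pools (adjusted p = 0.564 for the strain difference), and mpx, the neutrophil myeloperoxidase, 3.39 and 3.19 and then 3.19 and 3.18 (adjusted p = 0.0787). For mpx the male pools did not lie above the female pools. In these homogenates more cells of a type and more RNA per cell cannot be told apart. In male pool 1 the mean of 12 markers of radial glia and astroglia was 9.28, against 9.56 to 9.83 in the 12 other pools, and the mean of the 4 neuron markers 10.22. The part of these cell markers in the result was not tested.

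Whether the sexes differed more in the pools labelled TM1 than in the other strains was tested directly, in a factorial fit of strain and sex across all probe sets. Sexes are balanced within each strain, so the strain means that the rule used do not set this contrast, though a difference carried by 1 sex also moves a mean of 4 pools past the rule. The male minus female difference in TM1 exceeded the mean of that in the other 3 strains in 23 probe sets (0.29%, adjusted p under 0.05 in limma) and fell below it in 0 (425 in either direction at an unadjusted p under 0.05). Of these 23 calls, 8 were members, all among the 33 higher ones, and 7 of the 8 belonged to the interferon and phagocyte groups. None of the 8 met the rule in female pools alone. Their high male pools raised the means that the rule used, so their number among the calls is a description and supports nothing. Among the 23 lower members 0 were called, and 0 had an unadjusted p under 0.05.

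Among the members, the largest excess was that of Dr.10376.1.S1_at, at 3.52 ± 0.40 (SE, adjusted p = 0.00203), where males lay 3.39 above females in TM1 and the difference elsewhere was -0.27 to -0.02. Of the other members, ncf1 had the next largest with 2.23 ± 0.31 (adjusted p = 0.00745) and ctss2.1 with 1.52 ± 0.22 (adjusted p = 0.0113). gbp1 had an excess of 1.43 ± 0.15 (adjusted p = 0.00115) and cebpb one of 1.32 ± 0.18 (adjusted p = 0.00745). ctsc (1.31, adjusted p = 0.0265), grna (1.21, adjusted p = 0.0357) and c1qc (1.08, adjusted p = 0.0186) completed the 8. Close to the threshold but not past it lay cd74b (0.95, adjusted p = 0.0734) and cd68 (1.32, adjusted p = 0.110). Both male pools lay above both female pools in 14 of the 15 interferon and phagocyte members, against 11.4% of all probe sets. The same held in 2 of the 15 other higher members and 0 of the 3 photoreceptor ones. These groups were formed after the values were seen. High male pools also helped genes to pass the rule, so nothing is read from these counts.

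Leaving out single pools moved this count. The number of members called was 2 without female pool 1 (gbp1 and Dr.10376.1.S1_at), 4 without female pool 2, 4 without male pool 1, 10 without male pool 2 and 5 without Gaighatta female pool 2. Of the 15 calls outside the members, ctss2.2, irf1b, lcp1 (an actin-bundling protein of leukocytes), cyba (a subunit of the phagocyte oxidase) and gmfg are known from immune cells, and krt18b, a keratin, from epithelia (these 6 were singled out after their values were seen). The list of muscle markers, 21 measured, varied widely between pools of a strain (means of 6.68 to 9.0 in TM1 and 5.37 to 9.60 elsewhere), and 0 of its genes were called for this contrast. The list mean was 8.61 and 6.68 in the female and 9.0 and 7.13 in the male pools labelled TM1, and the median excess of its genes was 2.02, against -0.03 over all probe sets. The part of muscle in the sex differences was not tested.

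**Figure D3:**
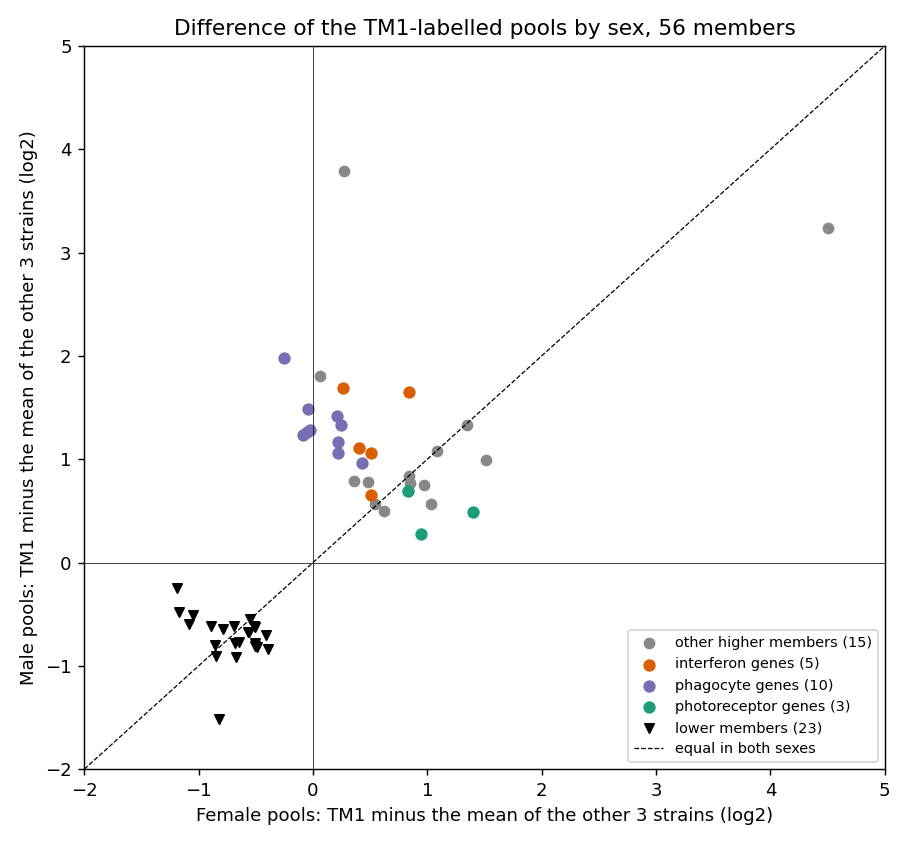
Log2 difference between the pools labelled TM1 and the mean of the other 3 strains, in female pools (x axis) and male pools (y axis), for each of the 56 members; the dashed line marks equal differences. The 10 phagocyte members lie at -0.25 to 0.43 in females and 0.96 to 1.98 in males, and the lower members lie on both sides of the line.

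Within the pools labelled TM1 alone, 9 of the 33 higher members were called higher in males (0.328% of all probe sets), the 8 above and ifi27.1 (1.35 ± 0.17, SE, adjusted p = 0.00323), and 0 were called higher in females. Over all 4 strains, 2 members were called higher in males (0.126% of all probe sets) and 0 higher in females (0.0252%). These were ifi27.1 (0.75 ± 0.09, adjusted p = 0.00293) and gbp1 (0.40 ± 0.07, adjusted p = 0.0381). For ifi27.1 the male mean was above the female mean in all 4 strains, while for gbp1 the difference was 1.47 in TM1 and -0.11 to 0.14 elsewhere. Male means exceeded female means in TM1 in 22 of the 33 higher members (40.1% of all probe sets) and in 10 of the 23 lower ones. High male pools also raise the means that the rule used, so nothing is read from these counts and shares. A male minus female difference in TM1 of at least 0.5 in size was seen in 18 of the 33 and 0 of the 23. Its share over all probe sets was not counted, and nothing is read from that contrast either.

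The spread of the 4 pools labelled TM1 was larger than that within each other strain in 25 of the 33 higher members, against 36.8% of all probe sets, and in 10 of the 23 lower ones. The median SD was 0.46 in the higher and 0.27 in the lower members. High male pools raise the mean that the rule used and also widen this spread. Nothing is therefore read from these counts, the share or the median SDs. When only female pools were used, 10 of the 33 higher and 7 of the 23 lower members met the rule, and with only male pools 22 and 14. Among all 7922 probe sets, 29 were higher and 31 lower by the rule in female pools, and 71 and 36 in male pools. Members that met the rule in each sex on its own were 5 higher ones (Dr.10066.1.A1_at, Dr.17612.1.A1_at, adra2b, tmem160 and Dr.24492.1.A1_at) and 3 lower ones (sparc, Dr.15049.1.A1_at and syt11a). The pools of each sex are part of the means that chose the members, so these counts are a description and support nothing.

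A check on pools that the choice did not use was added after the values had been seen. The rule was applied to all probe sets in the pools of 1 sex and the strain difference tested in the other sex with limma, fitted on those 8 arrays alone. Membership itself was decided on the pools of both sexes. That a called probe set is a member is therefore a description and supports nothing. Of 29 probe sets higher in female pools, 3 were called in male pools (0.985% of all probe sets), and these were the members Dr.10066.1.A1_at, Dr.17612.1.A1_at and adra2b. Of 31 lower in female pools, 4 were called in male pools (0.505%), among them sparc and Dr.15049.1.A1_at. anxa3b, an annexin that is no member and was singled out after its values were seen, was chosen as lower in females (-0.69) and called higher in males (0.87, adjusted p = 0.00950 in limma), and the reverse choice gave an adjusted p of 0.0179. Of 71 higher in male pools, 5 were called in female pools (0.947%), 4 of them members: Dr.10066.1.A1_at, Dr.16099.1.S1_at, Dr.24492.1.A1_at and adra2b. Of 36 lower in male pools, 11 were called in female pools (1.38%), among them slc25a44b, hsbp1a, syt11a and Dr.15049.1.A1_at. Of the interferon and phagocyte members that met the rule in male pools, 0 were called in female pools, with adjusted p values of 0.0656 (ifi35) to 0.918 (cd68) in limma. Those members were chosen on both sexes, and 2 female pools per strain give little precision, so nothing is read from the missing calls. Not among them, since they failed the rule in male pools alone, were ifi27.1, nmi, cd74b and ncf1. Their differences in female pools were 0.84, 0.40, 0.22 and -0.25. The median difference in females of the 71 chosen in males was 0.11, and that of the 36 chosen as lower was -0.51.

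Among the other higher members with a gene name, 0 were called for a sex difference. adra2b, an α2 adrenergic receptor, read 5.95, 6.29, 6.56 and 5.90 in the pools labelled TM1 (females first) against 4.79 to 5.27 elsewhere (median 5.12), with no overlap. clockb, a transcription factor of the circadian clock, read 5.54, 6.01, 5.88 and 5.50 against 4.50 to 5.28, also with no overlap. pafah1b1a, the homolog of the lissencephaly protein LIS1, which regulates dynein, read 8.52, 8.67, 8.69 and 8.44 against 7.06 to 8.48, so that the other strains spread widely and just met the lowest of the 4 pools. ddx6, an RNA helicase of processing bodies, read 6.55, 6.28, 6.27 and 5.96 against 4.56 to 6.19. tmem160, a transmembrane protein, read 5.47, 6.89, 5.93 and 6.06 against 4.80 to 5.62, and female pool 1 lay within that range. zgc:172053 read 4.74, 4.93, 4.42 and 5.31 against 3.98 to 4.50.

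Of the 3 photoreceptor members, opn1mw2 varied widely between pools. This gene, a green cone opsin, read 4.28 and 5.37 in the female and 3.45 and 5.05 in the male pools labelled TM1, against 3.08 to 4.47 elsewhere (median 3.43). Male pool 1 was close to the median of the other strains. gnat1, the rod transducin, read 6.45, 6.68, 6.44 and 6.66 against 4.77 to 6.67, and gucy2f, a guanylate cyclase of photoreceptors, 4.51, 4.51, 3.98 and 4.18 against 3.35 to 4.36. In gnat1 the 4 pools lay close together while the pools of each other strain spread widely. Of 58 eye and photoreceptor genes listed, 14 were measured. Of the 11 that are not members (median difference 0.35) 2 were called higher and 0 lower, pde6ha, a cone phosphodiesterase subunit, by 1.77 ± 0.52 (SE, adjusted p = 0.0416) and rom1b by 0.35 (adjusted p = 0.0427). Without the members, the mean over the list was 5.38 to 5.86 in the pools labelled TM1 and 4.64 to 6.02 in the 12 others, and its part in the result was not tested.

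clockb stood among clock genes that differed in both directions. Of 47 clock genes listed, 19 were measured, and of the 18 others (median difference -0.28) 4 were called higher and 8 lower in the pools labelled TM1. rorcb (1.64 ± 0.23, SE, adjusted p = 0.000507), an orphan receptor, and nfil3-5 (1.63, adjusted p = 0.00102), a bZIP repressor, were higher by most. Among those lower, ciarta, a repressor of the clock, had a difference of -2.53 (adjusted p = 0.00465) and nr1d2b, a Rev-erb receptor, one of -0.97 (adjusted p = 0.000352). None of these 4 is a member, since the other strain means differed among themselves by more than the rule allows. The pools do not carry a time of day in the labels used here, and its part in these values was not tested. Of 12 dynein and lissencephaly genes measured, pafah1b1a was the only member and dynll1, a dynein light chain, was called lower (difference -0.56, adjusted p = 0.00239). adra2b was the only member among 8 measured genes of adrenergic and monoamine signaling, c1qc the only one among 4 of complement and pycard the only one among 5 of inflammasomes. Of the other 3 complement and 4 inflammasome genes 0 were called.

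The pools labelled TM1 spread less in the 23 lower members than in the higher ones, which is given only as a description. The farthest was msmo1, a methylsterol monooxygenase of cholesterol synthesis, at 6.13 and 5.48 in the female and 5.46 and 6.03 in the male pools labelled TM1, against 6.31 to 7.84 elsewhere (median 6.95). All 4 lay below every other pool. si:ch211-80h18.1 read 5.58, 5.93, 5.68 and 6.55 against 5.96 to 7.81, and male pool 2 overlapped the others. nqo1, a quinone reductase of the response to xenobiotics and oxidants, read 4.94, 4.75, 4.92 and 5.45 against 5.09 to 7.02, where a male pool labelled Gaighatta stood highest. Of 4 genes measured from the aryl hydrocarbon receptor response, cyp1a, a monooxygenase that is no member because the other strains differ among themselves, had a difference of -3.35 ± 0.43 (SE, adjusted p = 0.000217), and ahr2, the receptor, one of -0.29 (adjusted p = 0.0306).

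**Figure D4:**
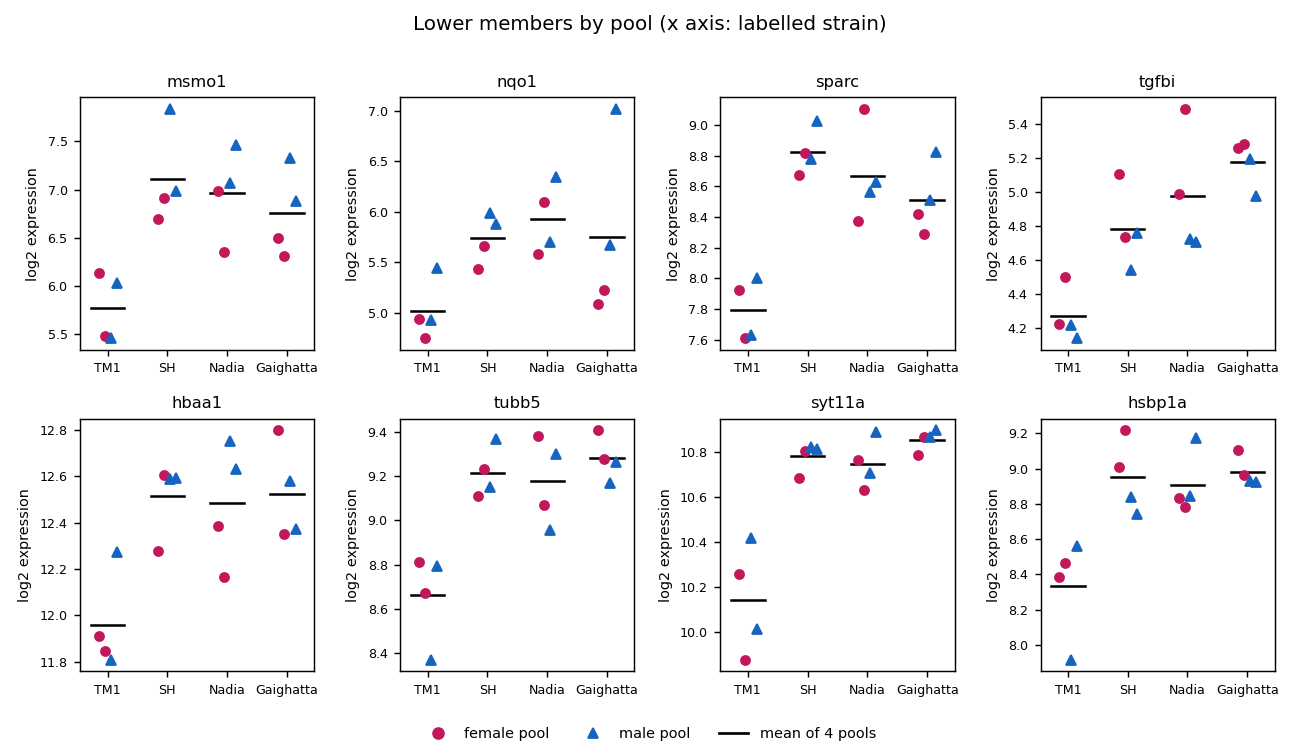
Log2 expression of 8 lower members in each pool (circles female, triangles male), by labelled strain, with the mean of 4 pools as a bar. The 4 pools labelled TM1 lie below all others for msmo1, sparc, tgfbi, tubb5, syt11a and hsbp1a, and overlap them for nqo1 and hbaa1.

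sparc and tgfbi encode matrix proteins that bind collagen. sparc read 7.93, 7.61, 7.63 and 8.0 against 8.29 to 9.10 elsewhere (median 8.65), and tgfbi 4.22, 4.50, 4.21 and 4.14 against 4.54 to 5.49. Neither overlapped. Of 29 meningeal and matrix genes listed 17 were measured, and of the 15 that are not members (median difference -0.15) 4 were called lower and 0 higher. The differences were -1.25 for col1a1a, a chain of type I collagen (adjusted p = 0.0282), -0.70 for igfbp2a, which binds insulin-like growth factors (adjusted p = 0.000707), -0.42 for fn1b, a fibronectin, and -0.38 for lamb1a, a laminin chain. Without the members the list mean was 5.79 to 6.10 in the pools labelled TM1 and 5.97 to 6.39 in the 12 others. The part of meningeal tissue in the dissections was not tested.

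tubb5, a β-tubulin, read 8.81, 8.67, 8.37 and 8.79 against 8.95 to 9.41. Of the 12 other tubulin and tubulin-binding genes measured 3 were called lower and 0 higher, with differences of -0.60 for tuba8l3, -0.59 for tuba2 and -0.29 for tubg1. syt11a, a synaptotagmin of vesicle traffic, read 10.25, 9.88, 10.42 and 10.01 against 10.63 to 10.90, a narrow range in the other strains. hbaa1, an adult α-globin, read 11.91, 11.84, 11.81 and 12.27 against 12.17 to 12.80, and of 10 other red cell and heme genes only cahz, the red cell carbonic anhydrase, was called (difference -0.51, adjusted p = 0.0368). The mean over those 10 was 6.01 to 6.53 in TM1 and 6.06 to 6.68 elsewhere, and the part of blood in the globin value was not tested.

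Of the other named lower members, slc25a44b, a mitochondrial carrier, read 5.98, 6.26, 6.24 and 6.11 against 6.56 to 7.25, and hsbp1a, a small protein that binds heat shock factor in mammals, 8.39, 8.47, 7.92 and 8.56 against 8.74 to 9.22. Neither overlapped. frg1 read 5.87, 6.74, 5.97 and 6.20 against 6.64 to 6.96, where female pool 2 lay inside the range, and zgc:112966 read 4.23 to 4.44 against 4.54 to 5.53. Among lower members without a symbol, Dr.2418.1.A1_at, Dr.4975.1.A1_at and Dr.3197.1.A1_a_at lay farthest, at 6.11, 6.07 and 6.44 on average against strain means of 6.75 to 7.30 elsewhere. The other 7 lay 0.52 to 0.62 from the nearest strain mean. Dr.3197.1.A1_a_at and Dr.3197.1.A1_x_at read the same transcript cluster and are not independent. A probe set named mpz (a myelin protein) in the tables of the study, and unnamed by the platform, read 11.20, 11.20, 10.81 and 10.89 against 11.41 to 11.79.

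For 7 member genes the array holds another probe set with the same symbol that is not a member. Only 1 of these 7 companions was called in the direction of its member. The companion of adra2b read 6.33 and 6.45 in the female and 6.67 and 6.13 in the male pools labelled TM1, against strain means of 5.93 to 6.02, a difference of 0.43 ± 0.10 (SE, adjusted p = 0.0137 in limma), and without male pool 1 it was not called. The companion of gnat1 lay 0.53 ± 0.24 above (adjusted p = 0.182), and those of tubb5 and syt11a differed by -0.19 ± 0.08 and -0.13 ± 0.09 (adjusted p = 0.156 and 0.387). Those of tmem160, pafah1b1a and ddx6 differed by -0.01 ± 0.08, -0.04 ± 0.16 and -0.24 ± 0.16, while their members lay 0.80, 0.84 and 0.77 above. A companion as far off as its member would itself have met the rule unless the other strains spread, which limits the companions to smaller differences. Companions can read other stretches of the transcript, or other transcripts. That of adra2b has the same identifier number as its member (2.32), so they may not be independent. Sequence differences between strains under the probes were not tested.

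**Figure D5:**
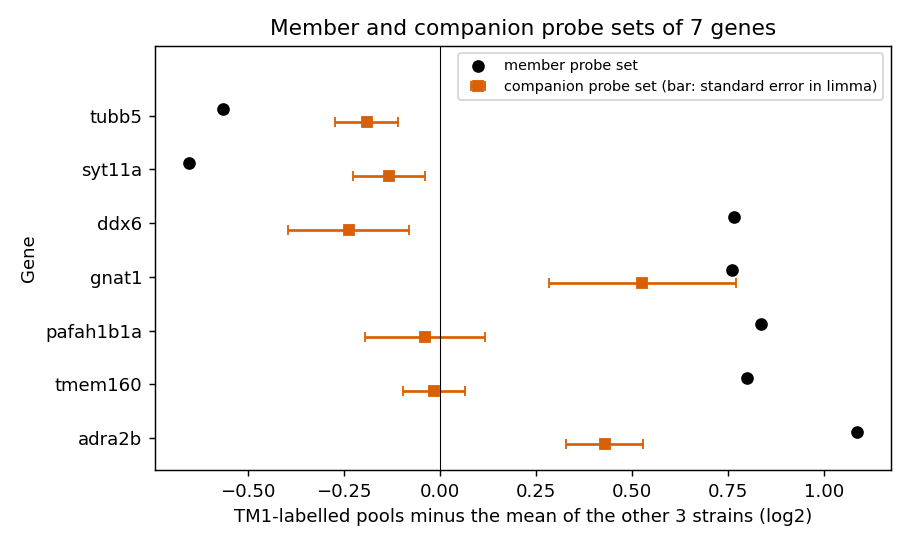
Log2 difference between the pools labelled TM1 and the mean of the other 3 strains for 7 members (circles) and for another probe set of the same gene (squares, with the standard error from limma). 4 of the 7 companions lie on the side of their member, and only that of adra2b was called.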

How the data were processed

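Brain RNA (10 µg of total RNA per array) was hybridized to Affymetrix Zebrafish Genome Arrays. The authors computed 1 value per probe set with RMA in the affy package (background correction, quantile normalization and summary of probes, on the log2 scale). The authors also filtered on expression before deposit, so shares of all probe sets are shares of those kept. By their methods, genes with an interquartile range under 0.5 over the arrays were removed as well. Of the 7922 tested, 7068 have a range under 0.5, so the deposited values do not show that second filter. The versions of their tools were not given in the sources used here. The deposited table held 7958 probe sets, of which 36 AFFX controls were left out, except GFP and CFP for the check of labels. Probe sets of polymorphic probes, which the authors later removed, are still among the rest, and single probe values were not analysed here. The 4 arrays per strain limit the precision, and p-values measure the spread between pools of fish.

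The rule for members was applied to strain means, and no member's call in the strain contrast over all arrays is used. Strain differences (TM1 minus the mean of the other 3 strains, mean per strain), sex differences and the excess of the sex difference in TM1 (factorial fit of strain and sex) were fitted on all 16 arrays with limma 3.58.1 in R 4.3.3, with eBayes and Benjamini-Hochberg adjustment over 7922 probe sets at 0.05. The members, the 23 gene lists and the rules were chosen with earlier results of these data known. The roles used to group members were assigned after their values were seen.

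Named are the 12 members with 1 symbol and the 3 without one that lie farthest in each direction, members in a list or called between sexes, companion probe sets, up to 4 called genes of each list that holds a member, and the nearest probe sets to each threshold. 1 lower member that this rule names is not reported here. Lists use the probe set of highest mean per gene. Names come from the platform annotation, updated through gene identifiers, and neighbouring genes from a RefSeq annotation whose coordinates were not used. Pool numbers were checked for pairing by correlating deviations from group means within each sex. The fits of the strain difference, the sex difference and the excess in TM1 were first run on simulated data with 200 changed probe sets among 7922. The fits within 1 sex, the sex contrast within TM1 and the alternative settings were not tested in that way.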

Additional observations from a re-analysis of the deposited data

Results flagged for a closer look

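In 2 of the 56 members, 1 of the 4 pools labelled TM1 stood apart from the other 3 by a test for outliers that flags about 1 in 20 groups by chance. For Dr.10192.1.A1_at male pool 1 read 9.25 against 9.61 to 9.65, and for Dr.5167.1.A1_at male pool 2 read 8.54 against 7.55 to 7.65.

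The male minus female difference in the pools labelled TM1 differed from that in the other 3 strains in 8 members, each by a test of the difference itself in limma. The excess on the log2 scale was 3.52 for Dr.10376.1.S1_at, 2.23 for ncf1, 1.52 for ctss2.1, 1.43 for gbp1, 1.32 for cebpb, 1.31 for ctsc, 1.21 for grna and 1.08 for c1qc. In each of the 8 both male pools lay above both female pools (11.4% of all probe sets), and none met the rule for members in female pools alone. The call itself favors that order, so nothing is read from it. High male pools also raised the means that the rule used, so these calls among the members are a description and support nothing.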

How the results depend on the processing

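The number of members depends on the thresholds of the rule. With a distance of at least 0.4 there were 57 higher and 47 lower, with at least 0.6 there were 21 and 9, and from male pools alone 71 and 36. Among probe sets with a mean of at least 5 there were 22 higher and 21 lower members. Leaving out 1 pool at a time gave 28 to 51 higher (51 without TM1 female pool 2) and 18 to 32 lower members. Without 1 pool, the probe sets called higher than the mean of the other strains numbered 181 (without TM1 male pool 2) to 269, against 279 with all pools. Those called lower numbered 282 (without TM1 male pool 1) to 451, against 451 with all pools. Over the other settings, higher calls ran from 208 (a mean of at least 5) to 410 (array weights). The lower calls ran from 385 (a mean of at least 5) to 546 (replicate block). In female pools alone 5 members changed direction, ncf1 to -0.25, cebpb to -0.0849, cd68 to -0.0492, ctss2.1 to -0.0428 and ctsc to -0.0264, while all 56 kept their direction in male pools alone, by strain medians, after centring the arrays on their medians and without any 1 pool.

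Members called for a sex difference particular to TM1 numbered 5 among probe sets with a mean of at least 5, and 2 to 10 when single pools were left out. Members called between sexes numbered 1 to 6 without single pools, and the companions called 0 to 1. The pool numbers showed no common pairing of the samples: of 12 correlations between same-numbered pools of a sex, 3 were over 0.1 (-0.23 to 0.31). With 2 pools per sex and strain, this check cannot decide whether same-numbered pools were handled together. With the pool number as a replicate block 6 of the 8 members were called for a sex difference particular to TM1 (ctsc and grna were not), and 1 in place of 2 between sexes. The causes of these shifts were not tested.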

Other observations

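Lists of genes that hold no member are given by their counts, against the mean of the other 3 strains in limma, beside a median difference of -0.04 over all probe sets. Of 12 measured cryptochromes and photolyases, light-sensing and DNA repair proteins of which several also belong to the clock list, 1 was called higher and 5 lower in the pools labelled TM1 (median difference -0.32). Of 12 markers of radial glia and astroglia 1 was called in each direction (median -0.13), and likewise of 7 of cartilage (median -0.28). The lists of muscle (21 measured), immediate early genes (20) and myelin (3) each held 1 gene called lower and 0 higher. Among 16 markers of epithelium, 6 of the pituitary, 4 of neurons, 3 of the pineal organ and 3 Pim kinases 0 were called. The medians of the epithelial and pituitary lists, 0.41 and -1.08, were far from that of all probe sets, but neither shift was particular to the pools labelled TM1. The pituitary list mean was 4.72 to 5.14 in TM1 and 4.46 to 5.20 in Gaighatta, against 4.90 to 8.17 in SH and 4.92 to 7.58 in Nadia. The epithelial list mean was 7.45 to 7.78 in TM1, within the 6.10 to 9.12 of the 12 other pools.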
